A study of Mus musculus with 12 samples.

Results

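NAD is the hydrogen carrier of energy metabolism and the substrate of sirtuins, ADP-ribosyltransferases and NAD glycohydrolases, which cleave it and release nicotinamide. Cells rebuild it mainly by salvage: Nampt converts nicotinamide to nicotinamide mononucleotide, the riboside kinases Nmrk1 and Nmrk2 make the same mononucleotide from nicotinamide riboside, and the Nmnat adenylyl transferases turn it into NAD. NAD kinases phosphorylate NAD to NADP, and the transhydrogenase Nnt of the inner mitochondrial membrane uses the proton gradient to make NADPH from NADH. The heart relies largely on salvage, with Nampt as its main enzyme, while Nmrk2 is known as the riboside kinase of striated muscle.

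The genes described here are the 9 members Nmrk1, Nmrk2, Nampt, Nmnat1, Nmnat3, Nadk, Nadk2, Nnt and Sirt3, taken by gene symbol from a raw count table of 55401 gene rows. All 9 passed the filter on low counts, which left 17699 genes. Messenger RNA of the left ventricle was sequenced from 12 mouse samples, 3 in each of 4 groups: T497A mice after transverse aortic constriction (TAC), wild-type (WT) mice after TAC, T497A mice after sham surgery and WT mice after sham surgery. T497A is a point mutant of Prkca, the gene of protein kinase C alpha. TAC narrows the aorta to the width of a needle (27 gauge here) and raises the pressure against which the left ventricle ejects. Surgery was at 10 weeks of age and tissue was taken 1 week later, at 11 weeks. All 12 libraries carry the same batch label. The labels name no strain, no sex and no other allele or agent, and they give the cell type as cardiomyocyte although the tissue is left ventricle.

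Library totals ran from 58932759 to 72594085 counts. Levels are CPM, counts scaled to library size with TMM factors. A value after ± is the SD over 3 libraries for a level and the standard error for a log2 fold change. A gene is called when the Benjamini-Hochberg adjusted p of edgeR's quasi-likelihood test over all 17699 genes is under 0.05. Nothing in the labels ties each library to a separate animal, so the p-values speak to the spread between these libraries, which may be technical. Gene counts cannot show a point mutation, and the genotype labels were not checked here. The 10 cardiomyocyte markers were all detected, and the 7 skeletal muscle markers summed to at most 6.10 CPM in any library.

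Other transcripts differed between the groups before any NAD gene is considered. The T497A sham libraries had 160 to 215 CPM of Xist, the RNA of the inactive X chromosome, and at most 0.396 CPM of the Y-linked Ddx3y, whereas the other 9 libraries had at most 0.751 CPM of Xist and 73.6 to 108 CPM of Ddx3y. Every comparison with T497A sham therefore also compares libraries with and without Y-linked transcripts, and sex and surgery or genotype cannot be told apart in it. The summed cardiomyocyte markers stood at 62254 to 66744 CPM in T497A TAC, 35539 to 42401 CPM in WT TAC, 72060 to 73246 CPM in T497A sham and 67695 to 73880 CPM in WT sham. The 8 fibroblast markers summed to 1635 to 2471 CPM in T497A TAC, 7131 to 14160 CPM in WT TAC, 992 to 1250 CPM in T497A sham and 1075 to 1293 CPM in WT sham. The WT TAC libraries were thus low in cardiomyocyte and high in fibroblast transcripts, and WT TAC 2 was the extreme on both. In bulk tissue, fewer cells of a type and less RNA per cell cannot be told apart. The atrial markers Myl7, Myl4 and Sln averaged 133, 158 and 31.8 CPM in T497A sham. They averaged 10.7, 13.3 and 2.21 CPM in T497A TAC, 32.5, 48.5 and 5.49 CPM in WT TAC, and 48.95, 47.6 and 8.56 CPM in WT sham. The 5 atrial markers summed to 928 CPM in T497A sham 3, and to 272 and 271 CPM in T497A sham 1 and 2. In WT TAC their sum was 2534 to 2839 CPM, where Nppa alone averaged 2596 CPM. The part of atrial tissue was not tested.

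Nmrk2 and Nampt stand for the riboside and the nicotinamide route, and TAC moved them in opposite directions in both genotypes, so the bases upstream of their RefSeq starts are shown (build GRCm38.p6; 7 of the 9 members had an entry). The Nmrk2 bases are chr10:81202052-81202287 on the minus strand, with 14 bases next to the start left out because they lie in an annotated exon. The Nampt bases are chr12:32820085-32820334 on the plus strand, inside the longer GENCODE gene but in none of its exons. Capitals mark matches to the GC box GGGCGG on either strand and to the TATA box TATAAA.

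Nmrk2: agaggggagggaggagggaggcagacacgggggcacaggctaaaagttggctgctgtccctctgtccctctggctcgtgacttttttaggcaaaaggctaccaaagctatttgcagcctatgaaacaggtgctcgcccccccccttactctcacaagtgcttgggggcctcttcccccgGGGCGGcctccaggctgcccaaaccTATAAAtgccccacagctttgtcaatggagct

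Nampt: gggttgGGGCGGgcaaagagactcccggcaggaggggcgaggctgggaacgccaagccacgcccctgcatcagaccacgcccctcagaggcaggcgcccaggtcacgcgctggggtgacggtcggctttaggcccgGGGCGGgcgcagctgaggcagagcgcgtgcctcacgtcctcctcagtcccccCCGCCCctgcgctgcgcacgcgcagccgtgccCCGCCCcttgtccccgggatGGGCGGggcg

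The Nmrk2 stretch held 1 GC box and 1 TATA box at 58.5% G and C, and the Nampt stretch held 5 GC boxes and no TATA box at 75.6%. A GC box lies within 250 bases before the start in 32.7% of 32851 RefSeq promoters and a TATA box in 12.4%. Neither stretch held the E-box CACGTG (6.02% of promoters), the AP-1 site TGANTCA (6.75%), the TEAD site GGAATG (12.6%), the ERR half-site AAGGTCA (4.08%) or a CArG box (1.47%), searched on both strands. These are matches of letters and not measured binding.

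The members differed widely in level when compared per kilobase of exon (RPKM with TMM factors). In WT sham the order was Nampt (56.3 RPKM), Nadk2 (19.2), Nadk (9.87), Nmnat1 (7.09), Sirt3 (5.52), Nmnat3 (4.38), Nmrk2 (2.81), Nmrk1 (1.01) and Nnt (0.512), and no neighbours in this order overlapped. T497A sham had the same order, but there the libraries of Nmnat3 and Nmrk2 overlapped, as did those of Nmrk1 and Nnt. In T497A TAC Nmrk2 (4.77 RPKM) passed Nmnat3 (3.78 RPKM) and overlapped with Sirt3 (4.90 RPKM). In WT TAC Nmrk2 stood second at 21.3 ± 4.12 RPKM and overlapped with Nampt at 23.1 ± 1.22 RPKM. Per kilobase of exon not shared with another gene, a length chosen after seeing the data, Nmrk2 (24.99 RPKM) stood above Nampt (23.1 RPKM) in WT TAC, and the libraries again overlapped. On that scale Nnt had 0.953 RPKM in T497A sham and 0.974 RPKM in WT sham, and its libraries overlapped with those of Nmrk1 (0.827 and 1.01 RPKM) in both, with the mean of Nnt above that of Nmrk1 in T497A sham.

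**Figure D1:**
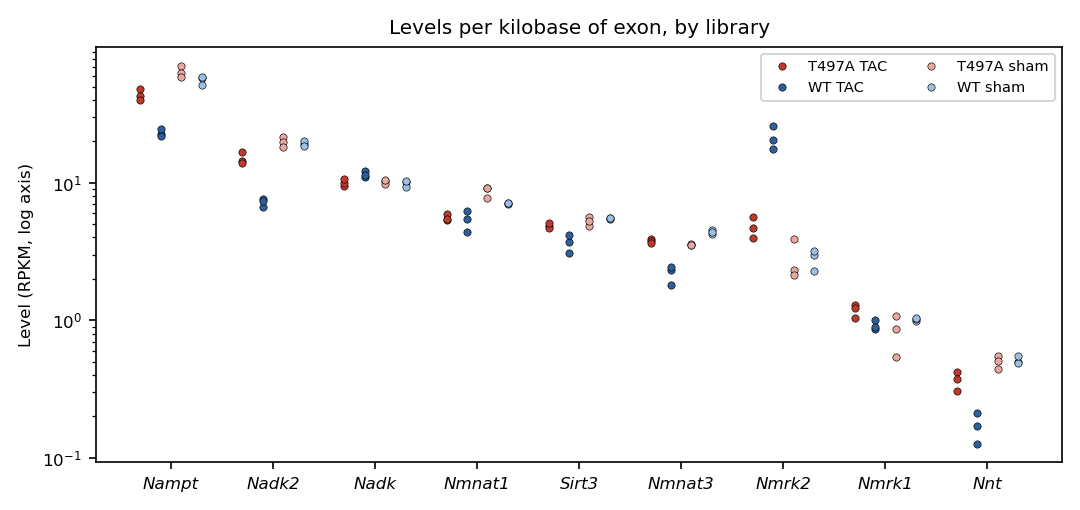
Level of each member in RPKM on a log axis, with 1 point per library and the members ordered by their WT sham mean. Nmrk2 stands between 17.7 and 25.8 RPKM in the WT TAC libraries, beside Nampt, and at 5.62 RPKM or less in all others.

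Nmrk2, the muscle riboside kinase (ENSMUSG00000004939.7, GRCm38 chromosome 10, 81198170 to 81202051, minus strand), was the member with the largest change. It stood at 8.76, 10.4 and 7.34 CPM in T497A TAC, 38.0, 47.9 and 32.9 CPM in WT TAC, 4.33, 3.98 and 7.21 CPM in T497A sham and 5.49, 4.26 and 5.88 CPM in WT sham. All WT TAC libraries lay far above the rest, and the T497A TAC libraries lay just above both sham groups. TAC raised Nmrk2 7.59-fold in WT (log2 2.92 ± 0.24, adjusted p = 2.53e-06) and 1.71-fold in T497A (0.77 ± 0.24, adjusted p = 0.0353). The call in T497A was lost in 7 of 22 alternatives (adjusted p 0.00238 to 0.122), among them without T497A TAC 1 or 2, T497A sham 1 or 2, or WT sham 1. After TAC it was lower in T497A than in WT (-2.16 ± 0.23, adjusted p = 4.60e-05), and the TAC response differed between the genotype labels (-2.15 ± 0.33, adjusted p = 8.10e-04). After sham the genotypes were close (-0.01 ± 0.24, 95% interval -0.49 to 0.46). Of the Nmrk2 exon bases, 14.6% are shared with the antisense gene Atcayos on the other strand, which stood at 50.5 to 57.0 CPM in T497A TAC, 32.3 to 34.6 CPM in WT TAC, 25.5 to 34.3 CPM in T497A sham and 36.2 to 45.4 CPM in WT sham. Any part of Atcayos reads in the Nmrk2 counts was not tested.

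Nmrk1, the widely expressed riboside kinase (ENSMUSG00000037847.14, chromosome 19, 18631950 to 18652428, plus strand), was not called in any comparison. It stood at 4.75, 4.52 and 3.81 CPM in T497A TAC, 3.73, 3.16 and 3.32 CPM in WT TAC, 3.18, 3.98 and 2.00 CPM in T497A sham and 3.62, 3.74 and 3.82 CPM in WT sham. All T497A TAC libraries lay above all WT TAC libraries (0.36 ± 0.20, adjusted p = 0.187), while both TAC groups overlapped with their sham groups. Its TAC change was 0.51 ± 0.20 in T497A (adjusted p = 0.0818) and -0.13 ± 0.20 in WT (adjusted p = 0.623), and the sign in WT turned to 0.20 without TMM factors. T497A sham 3 was its lowest library. Nmrk2 made up 80.0 ± 1.85% of the riboside kinase level per kilobase in T497A TAC, 95.8 ± 0.898% in WT TAC, 75.8 ± 10.9% in T497A sham and 73.3 ± 3.42% in WT sham.

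Nampt, the rate-limiting enzyme of salvage from nicotinamide (ENSMUSG00000020572.8, chromosome 12, 32819545 to 32853349, plus strand), was lower after TAC in both genotypes. It stood at 244, 218 and 203 CPM in T497A TAC, 115, 111 and 123 CPM in WT TAC, 358, 320 and 298 CPM in T497A sham and 294, 299 and 261 CPM in WT sham. The WT TAC libraries were the lowest, those of T497A TAC lay between, and the sham groups overlapped each other and no TAC library. Nampt fell with TAC to 0.410 of its sham level in WT (-1.29 ± 0.09, adjusted p = 5.61e-08) and to 0.681 in T497A (-0.55 ± 0.08, adjusted p = 3.21e-04). After TAC it was higher in T497A than in WT (0.93 ± 0.08, adjusted p = 3.20e-06), and the TAC response differed (0.73 ± 0.12, adjusted p = 4.53e-04). These calls held in every alternative run, none of which scaled to the cardiomyocyte markers. Relative to the sum of those markers, described below, the difference after TAC was 0.23 and that in response 0.07. In WT TAC Nampt ranked 117 of 17699 genes by p.

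**Figure D2:**
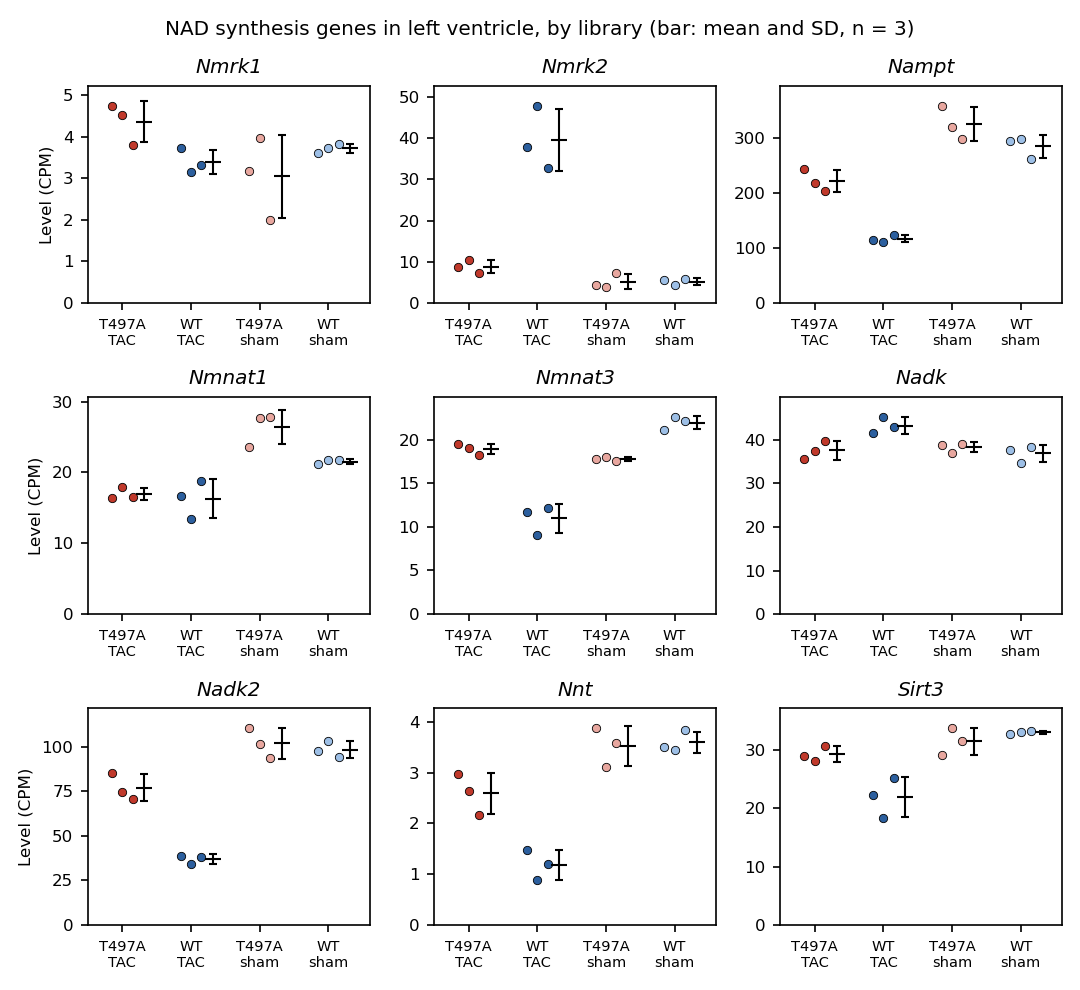
Level of each member in CPM (linear axis from 0), with 1 point per library, and the bar giving mean and SD of 3 libraries for T497A TAC, WT TAC, T497A sham and WT sham. Nmrk2 is high in WT TAC alone at 32.9 to 47.9 CPM, while Nampt, Nadk2 and Nnt are lowest there.

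The Nmrk2 to Nampt ratio within a library does not depend on library scaling. As log2 per kilobase it was -3.35, -2.94 and -3.34 in T497A TAC, -0.15, 0.23 and -0.46 in WT TAC, -4.92, -4.87 and -3.92 in T497A sham and -4.29, -4.68 and -4.02 in WT sham. Nmrk2 was therefore near the Nampt level in WT TAC and far below it elsewhere. TAC raised the log2 ratio by 4.20 in WT and by 1.36 in T497A, each with an exact two-sided permutation p of 0.1, the smallest that 3 against 3 libraries allow, and an adjusted p of 0.133 over the 4 comparisons made. After TAC the difference of T497A from WT was -3.08 (exact permutation p = 0.1), and after sham it was -0.24 (exact permutation p = 0.6).

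**Figure D3:**
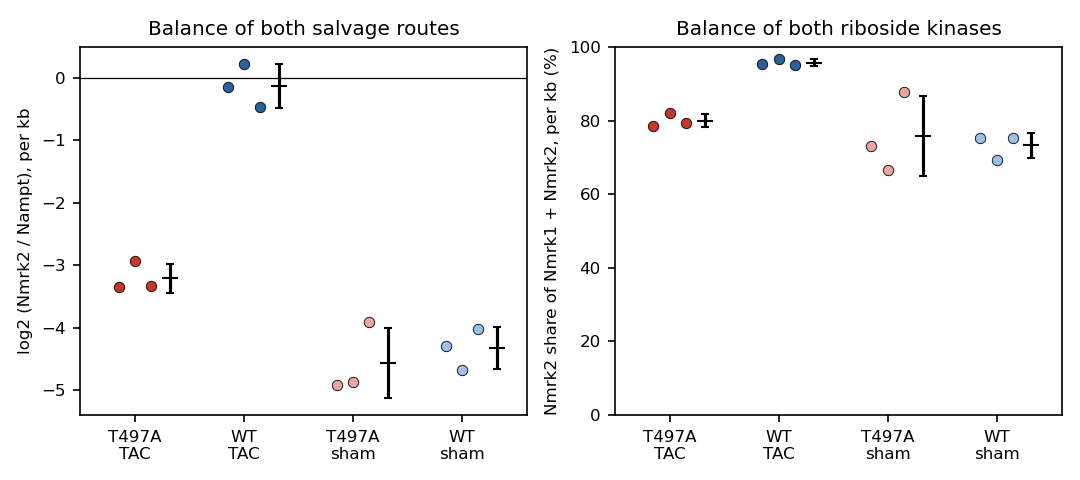
Left, log2 ratio of Nmrk2 to Nampt per kilobase of exon; right, Nmrk2 as a percentage of Nmrk1 plus Nmrk2 per kilobase. Points are libraries and bars are mean and SD of 3; the WT TAC libraries stand at -0.46 to 0.23 on the left and above 95% on the right.

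The adenylyl transferases take part in every NAD route, and both members moved with TAC in WT. Nmnat1, the nuclear enzyme (ENSMUSG00000028992.13, chromosome 4, 149467572 to 149485202, minus strand), stood at 16.4, 18.0 and 16.6 CPM in T497A TAC, 16.6, 13.4 and 18.8 CPM in WT TAC, 23.6, 27.7 and 27.9 CPM in T497A sham and 21.2, 21.7 and 21.7 CPM in WT sham. Both TAC groups lay below both sham groups and overlapped each other. Nmnat1 fell with TAC in T497A (-0.63 ± 0.11, adjusted p = 6.62e-04) and in WT (-0.40 ± 0.11, adjusted p = 0.00537), but the WT call was lost without TMM factors (-0.08, adjusted p = 0.516). The T497A and WT TAC groups were not called apart (0.06 ± 0.11, 95% interval -0.15 to 0.27), and neither was the TAC response (-0.23 ± 0.15, adjusted p = 0.274). Without WT TAC 2, the difference after TAC was -0.06 (adjusted p = 0.673), and the difference in response was called (-0.35, adjusted p = 0.0399). Without TMM factors that difference was also called (-0.52, adjusted p = 0.00721).

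Nmnat3, described as the mitochondrial enzyme (ENSMUSG00000032456.13, chromosome 9, 98287435 to 98420438, plus strand), stood at 19.5, 19 and 18.3 CPM in T497A TAC, 11.7, 9.11 and 12.2 CPM in WT TAC, 17.8, 18.0 and 17.5 CPM in T497A sham and 21.1, 22.6 and 22.1 CPM in WT sham. The WT TAC libraries were the lowest and no library of a group overlapped with another group. Nmnat3 fell with TAC in WT to 0.501 of the sham level (-0.997 ± 0.095, adjusted p = 1.06e-06), and its change in T497A was 0.09 ± 0.09 (adjusted p = 0.536; 95% interval -0.09 to 0.27). T497A was higher than WT after TAC (0.78 ± 0.09, adjusted p = 2.61e-05), and the TAC responses differed (1.09 ± 0.13, adjusted p = 5.72e-05). After sham T497A stood below WT in all libraries without a call (-0.30 ± 0.09, adjusted p = 0.0744). That difference was called without WT TAC 2 (adjusted p = 0.00980), with the DESeq2 test, with limma-voom and when only both sham groups were fitted.

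The 2 NAD kinases behaved differently from each other. Nadk2, the mitochondrial kinase (ENSMUSG00000022253.15, chromosome 15, 9071260 to 9110891, plus strand), stood at 85.3, 74.3 and 70.8 CPM in T497A TAC, 38.9, 33.9 and 37.9 CPM in WT TAC, 111, 101 and 93.4 CPM in T497A sham and 97.7, 103 and 94.0 CPM in WT sham. The groups stood in the same order as for Nampt, with T497A TAC between WT TAC and the overlapping sham groups. Nadk2 fell with TAC to 0.376 of its sham level in WT (-1.41 ± 0.08, adjusted p = 2.26e-08, rank 59 of 17699 by p) and to 0.754 in T497A (-0.41 ± 0.08, adjusted p = 0.00246). It was higher in T497A than in WT after TAC (1.06 ± 0.08, adjusted p = 9.52e-07), and the response differed (1.01 ± 0.12, adjusted p = 3.37e-05). After sham its difference was 0.05 ± 0.08 (adjusted p = 0.793).

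Nadk, the cytosolic kinase (ENSMUSG00000029063.16, chromosome 4, 155562378 to 155591001, plus strand), stood at 35.6, 37.4 and 39.8 CPM in T497A TAC, 41.5, 45.3 and 43.0 CPM in WT TAC, 38.8, 37.0 and 39.1 CPM in T497A sham and 37.8, 34.7 and 38.4 CPM in WT sham. The WT TAC libraries were the highest and the other 3 groups overlapped. Nadk rose with TAC in WT (0.23 ± 0.06, adjusted p = 0.00818; 0.56 without TMM factors), and its change in T497A was -0.03 ± 0.06 (adjusted p = 0.797). It was lower in T497A than in WT after TAC (-0.20 ± 0.06, adjusted p = 0.0218), a call that was lost in 4 of 23 alternatives, including without WT TAC 2 and without T497A TAC 1 or 2. The difference between the responses (-0.26 ± 0.09, adjusted p = 0.0464) was lost in 12 of 21 alternatives, among them 10 that left out 1 library.

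Nnt, the transhydrogenase, is represented by 2 rows. The row ENSMUSG00000116207.1 is at 0 in all 12 libraries, and its 3339 exon bases in GENCODE M21 all lie in exons of the other row, ENSMUSG00000025453.18 (chromosome 13, 119335448 to 119408997, minus strand). In this table only 1 of 763 genes whose exon bases are all shared with another gene on the same strand had a count, and 4 of 439 with all bases shared on the opposite strand, against 22601 of 43423 genes that share none. The counts of the second row therefore come almost wholly from its 3698 unshared exon bases, of which 16 are coding. As background, C57BL/6J mice carry a deletion of Nnt exons, but the strain is not given in the labels.

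That row stood at 2.98, 2.65 and 2.16 CPM in T497A TAC, 1.48, 0.892 and 1.20 CPM in WT TAC, 3.89, 3.11 and 3.58 CPM in T497A sham and 3.51, 3.45 and 3.84 CPM in WT sham, from 68 to 238 counts per library. WT TAC was lowest, T497A TAC lay between it and the sham groups, and the sham groups overlapped. Nnt fell with TAC in WT to 0.331 of the sham level (-1.59 ± 0.20, adjusted p = 1.42e-05), while its change in T497A was -0.44 ± 0.19 (adjusted p = 0.116). T497A stood above WT after TAC (1.12 ± 0.20, adjusted p = 6.15e-04), and the TAC response differed (1.15 ± 0.28, adjusted p = 0.00655).

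Sirt3, the NAD-dependent deacetylase of mitochondria (ENSMUSG00000025486.17, chromosome 7, 140863666 to 140882309, minus strand), stood at 28.9, 28.2 and 30.7 CPM in T497A TAC, 22.3, 18.3 and 25.1 CPM in WT TAC, 29.1, 33.8 and 31.5 CPM in T497A sham and 32.7, 33.1 and 33.2 CPM in WT sham. The WT TAC libraries were the lowest, and T497A TAC overlapped with T497A sham. Sirt3 fell with TAC in WT (-0.59 ± 0.10, adjusted p = 1.27e-04; -0.26 without TMM factors), and its change in T497A was -0.10 ± 0.10 (adjusted p = 0.475). Its level was higher in T497A than in WT after TAC (0.42 ± 0.10, adjusted p = 0.00343), and the TAC response differed (0.49 ± 0.14, adjusted p = 0.0144). Without TMM factors these last calls were lost, at 0.17 (adjusted p = 0.103) and 0.19 (adjusted p = 0.206). Sirt3 shares 12.7% of its exon bases with Ric8a and Psmd13 on the other strand.

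**Figure D4:**
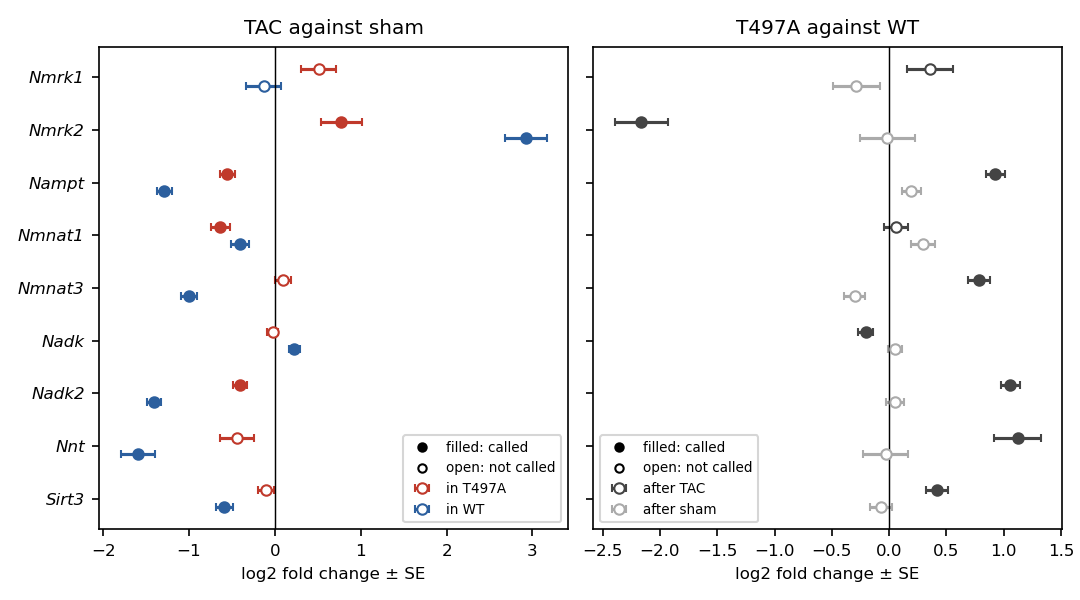
Log2 fold change with SE for each member, left for TAC against sham in T497A and WT and right for T497A against WT after TAC and after sham; filled points are called at adjusted p under 0.05. Nmrk2 stands at 2.92 on the WT side of the left panel, against 0.77 in T497A, and no point of the sham comparison is filled.

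Counted over the members, TAC against sham called 4 of 9 in T497A (1 higher, 3 lower), where 24.4% of all genes were called (12.9% higher and 11.4% lower). In WT it called 8 of 9 (2 higher, 6 lower), where 49.9% of all genes were called (25.9% higher and 24% lower). T497A against WT called 7 of 9 after TAC (5 higher, 2 lower; 35.7% of all genes) and 0 of 9 after sham (5.79% of all genes). For the sham comparison, 3 members had an unadjusted p under 0.05 (Nampt, Nmnat1 and Nmnat3), and DESeq2 called 1 and limma-voom 2. The difference between the responses was called for 7 of 9, against 29.5% of all genes. The median log2 change of the members was -0.10 in T497A and -0.59 in WT for TAC, against 0.00 and 0.03 over all genes. Both genotype comparisons share libraries with the surgery comparisons, so these counts are not independent of each other.

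T497A TAC against WT sham avoids the T497A sham group, although genotype and surgery change together in it. It called Nampt (-0.36 ± 0.08, adjusted p = 0.0159) and Nadk2 (-0.36 ± 0.08, adjusted p = 0.0148), both lower, where 10.0% of all genes were called. Each of these calls was lost in 4 of 23 alternatives, without T497A TAC 2 or 3 or WT sham 1 or 2. Nmrk2 had 0.76 ± 0.24 (adjusted p = 0.0685), close to its value against T497A sham. It stayed without a call in 18 of 23 alternatives (adjusted p 0.00521 to 0.216 over all 23). The 5 that called it include the fit without the T497A sham group (adjusted p = 0.0262). WT TAC against WT sham and T497A against WT after TAC do not use the T497A sham group. Leaving it out could alter only their filter, scaling and shared spread, and it changed no call of the 9 members there.

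TMM factors were 1.13 to 1.21 for WT TAC and 0.910 to 0.988 for the remaining libraries. Leaving them out shifted the median log2 change of all genes by 0.33 in TAC against sham in WT, by -0.25 in T497A against WT after TAC and by -0.30 in the interaction. The genes called in WT TAC then split into 8466 higher and 1891 lower, against 4576 and 4255 with them. The split after TAC was 1458 higher and 6874 lower in T497A than in WT without the factors, against 3156 and 3165 with them, and in the interaction it was 1175 and 5694, against 2700 and 2518. After sham it was 730 and 375, against 529 and 495, and in T497A TAC against WT sham 1597 and 335, against 1083 and 690. Set against the summed cardiomyocyte markers instead, as a description after the marker shift above, the log2 change with TAC in WT was 3.77 for Nmrk2, -0.44 for Nampt, -0.56 for Nadk2 and -0.77 for Nnt. On that scale it was -0.16 for Nmnat3, 0.25 for Sirt3, 0.43 for Nmnat1 and 1.08 for Nadk. Among the 8 members called in WT, Nmrk2, Nampt, Nmnat3, Nadk, Nadk2 and Nnt thus kept their sign and Nmnat1 and Sirt3 did not. Myh6 averaged 30378 CPM of the 71385 CPM of that sum in WT sham, and 13954 CPM in WT TAC. Of the 10 markers, 8 were called lower with TAC in WT and 0 higher, by unequal amounts. Tnni3 averaged 4313 CPM in WT sham and 1683 CPM in WT TAC, and Mybpc3 5274 and 5031 CPM. Values and signs on this scale thus depend on the markers summed. The marker sum itself was 0.69 higher (log2) in T497A than in WT after TAC. Relative to it, T497A differed from WT after TAC by -2.85 for Nmrk2, -0.90 for Nadk, 0.45 for Nnt, 0.36 for Nadk2, 0.23 for Nampt and 0.10 for Nmnat3, and Sirt3 turned to -0.26. Nmrk1 and Nmnat1, not called after TAC, also turned, to -0.34 and -0.62. On the same scale the Nampt change with TAC was -0.365 in T497A and -0.435 in WT, a difference of 0.070. The difference in TAC response was -2.77 for Nmrk2, -0.92 for Nadk, 0.51 for Nnt, 0.43 for Nmnat3 and 0.34 for Nadk2, and it turned to -0.16 for Sirt3. For Nmrk1 and Nmnat1 it was 0.04 and -0.88. The part of fibroblast and macrophage transcripts in these changes was not tested.

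The genes whose centred log2 levels ran closest to a member over the 12 libraries were taken from 12398 protein-coding genes. For Nmrk2 they were Mfap2, a microfibril protein (root mean square difference 0.218), Mdk, a heparin-binding growth factor (0.220), and Col16a1, a collagen chain (0.242), against a median of 1.24 over all genes. For Nampt they were Fbxo31, a ubiquitin ligase subunit (0.079), Aldh2, a mitochondrial aldehyde dehydrogenase (0.084), and Cmya5, a sarcomeric protein (0.089), against a median of 0.603. For Nnt they were Slc25a34, a mitochondrial carrier (0.117), Gstm1, a glutathione transferase (0.147), and Pxmp2, a peroxisomal membrane protein (0.157), against 0.696. Mfap2 averaged 4.26 CPM in T497A TAC, 19.6 CPM in WT TAC, 2.31 CPM in T497A sham and 2.18 CPM in WT sham.

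Of 71 other genes of NAD and NADP metabolism, 69 were tested. TAC against sham called 19 in T497A (8 higher, 11 lower), which is 27.5% against 24.4% of all genes. With 1 library left out, a setting chosen after seeing the data, 5 to 24 were called, with 5 without T497A TAC 2, 10 without T497A TAC 3 and 11 without T497A sham 3. In WT it called 42 (16 higher, 26 lower), or 60.9% against 49.9% of all genes. Without TMM factors the WT split was 32 higher and 16 lower, and without WT TAC 2 it was 13 and 22. T497A against WT after TAC called 32 (21 higher, 11 lower; 11 and 27 without TMM factors), or 46.4% against 35.7% of all genes. After sham it called 3 (2 higher, 1 lower), or 4.35% against 5.79% of all genes, and 0 to 5 with 1 library left out. The changes that follow are relative to the scaling shift given above.

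Of 14 genes listed under NADPH production, 5 were called with TAC in T497A and 13 in WT, against 24.4% and 49.9% of all genes. The list also holds enzymes that can use NAD in place of NADP, such as Aldh4a1, Me2, Glud1 and Mthfd2. In T497A 2 rose and 3 fell, and in WT 4 rose and 9 fell (5 and 7 without TMM factors). The count in T497A was 1 without T497A TAC 2 or 3 or T497A sham 1, and 3 without WT TAC 1 or T497A sham 2 or 3. In WT the malic enzymes Me3 (-0.85 ± 0.06) and Me1 (-0.67 ± 0.07) and the mitochondrial folate enzyme Aldh1l2 (-1.49 ± 0.12) fell, whereas the folate enzyme Mthfd2 rose (1.78 ± 0.18). Aldh1l2 (-0.89 ± 0.11) and Mthfd2 (0.60 ± 0.18) changed the same way in T497A, the call of Mthfd2 being lost in 4 of 12 fits that left out 1 library. After TAC 8 of the 14 were higher in T497A than in WT and 4 lower (6 and 4 without TMM factors), against 35.7% of all genes called.

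Among 7 genes of the thioredoxin and glutathione systems with Sod2, 2 rose and 2 fell in T497A, and 1 rose and 4 fell in WT. Of all genes, 24.4% were called in T497A and 49.9% in WT. Sod2, the mitochondrial superoxide dismutase, fell (-0.30 ± 0.09 in T497A and -1.09 ± 0.09 in WT), and the glutathione peroxidase Gpx1 rose (0.30 ± 0.06 and 0.98 ± 0.06). The Sod2 call in T497A was lost in 5 of 12 fits that left out 1 library (highest adjusted p = 0.0780), and the list count there was 2 without T497A TAC 1 or 2 or T497A sham 3. The peroxiredoxin Prdx3 fell in WT (-0.84 ± 0.08). Without TMM factors 3 of the 7 rose and 4 fell in WT.

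Enzymes that consume or clear NAD and nicotinamide changed in both directions. Cd38, an NAD glycohydrolase, rose in T497A (0.85 ± 0.12) and in WT (0.79 ± 0.12), averaging 17.0 CPM in T497A TAC, 19.4 CPM in WT TAC, 9.44 CPM in T497A sham and 11.2 CPM in WT sham. Its relative Bst1 rose in WT (1.26 ± 0.30). Nnmt, which methylates nicotinamide, rose in T497A (0.65 ± 0.20) and in WT (0.95 ± 0.20), with the T497A call lost in 4 of 12 fits that left out 1 library, and the nicotinamide-oxidising Aox1 fell in WT (-1.31 ± 0.21). Summed macrophage markers stood at 245 to 270 CPM in T497A TAC, 358 to 562 CPM in WT TAC, 192 to 225 CPM in T497A sham and 178 to 208 CPM in WT sham, and their part in these changes was not tested.

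Of the 6 other sirtuins 1 rose and 1 fell in T497A, and 2 rose and 4 fell in WT, among them the mitochondrial desuccinylase Sirt5 (-0.65 ± 0.10). Without TMM factors 3 rose and 1 fell in WT, and without WT TAC 2 the counts were 1 and 2. In T497A leaving out 1 library left 0 to 3 sirtuins called, with 0 in 7 of the 12 fits. Of 14 ADP-ribosyltransferases 1 rose in T497A (1 to 4 called with 1 library left out, 4 without T497A sham 1), and 3 rose and 1 fell in WT, both smaller shares than the 24.4% and 49.9% of all genes. Among them the DNA damage sensor Parp1 fell in WT (-0.50 ± 0.06), and without TMM factors 10 rose and 1 fell there.

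In the supply list of 9 genes, 4 fell in T497A (2 without TMM factors; 0 without T497A TAC 2, and 2 without T497A TAC 1 or 3 or T497A sham 3). In WT 2 rose and 2 fell (5 and 2 without TMM factors; 2 called without WT sham 2). Beside these counts, 24.4% of all genes were called in T497A and 49.9% in WT. The muscle nucleotidase Nt5c1a fell in WT (-1.37 ± 0.10), as did the mitochondrial NAD carrier Slc25a51 (-0.50 ± 0.07). Pnp and Pnp2, near-identical purine nucleoside phosphorylases whose reads may be split between them, were called higher in WT, but the Pnp call was lost in 1 and the Pnp2 call in 10 of 12 fits that left out 1 library. Of the other routes to NAD, Naprt, the first enzyme from nicotinic acid, fell in T497A (-0.32 ± 0.09) and in WT (-0.53 ± 0.09), in both cases without a call when TMM factors were left out. The T497A call of Naprt was also lost without T497A TAC 1 or 2 or T497A sham 1. In the tryptophan route 7 of 9 genes were tested and edgeR called 0 in T497A, where 1 had an unadjusted p under 0.05, DESeq2 called 1 and limma-voom 0. In WT Kmo was called higher (0.87 ± 0.33, adjusted p = 0.0396) and Afmid lower (-0.69 ± 0.24, adjusted p = 0.0265). Neither was called without WT TAC 2, and Afmid was not called without TMM factors (-0.36, adjusted p = 0.220).

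**Figure D5:**
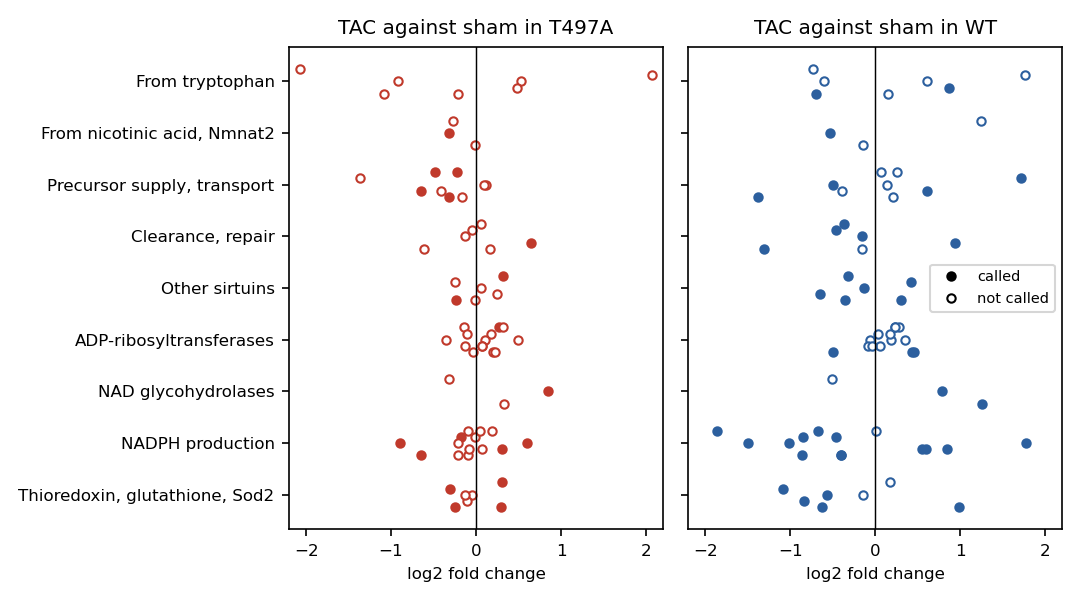
Log2 fold change of TAC against sham for the 69 tested genes of NAD and NADP metabolism that are no members, in T497A on the left and WT on the right, with 1 point per gene and a row per list; filled points are called. The row labelled NADPH production holds 13 filled points in WT and 5 in T497A, where 49.9% and 24.4% of all genes were called.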

How the data were processed

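The deposited table holds raw read counts per gene for 12 libraries, as whole numbers. Per the labels' protocols, column-purified RNA went into KAPA mRNA HyperPrep libraries sequenced as single-end reads. The authors used, per the submitters' processing notes, Trim Galore 0.6.4, STAR 2.7.3a, featureCounts (Subread 1.6.3) and limma 3.50.3, and these notes name both GRCh38 and mm10. The sources used here do not give the strand setting or the annotation release. Symbols came from the table, and positions and exon lengths from GENCODE M21 on GRCm38 (55141 of 55401 IDs matched, 54349 of them with their version).

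Counts of all 12 libraries were fitted with edgeR 4.0.16 (R 4.3.3; filterByExpr, TMM, robust quasi-likelihood F test, 1 mean per group), with Benjamini-Hochberg adjustment over 17699 genes, after a test on simulated data. Alternatives were DESeq2 size factors, no TMM factors, DESeq2 1.42.0, limma-voom (limma 3.58.1), no filter, a stricter filter (1 CPM in 6 libraries), mitochondrial, haemoglobin and rRNA genes removed, the replicate number as a block, only the groups compared, T497A sham left out, and each library left out. Autosomal genes only, the unshared exon length, levels relative to the cardiomyocyte markers and the list calls under other settings were chosen after seeing the data. Named are all members, up to 4 called genes per list with the smallest p (2 where lists are described together), and the 3 genes most like Nmrk2, Nampt and Nnt. Members and lists were chosen with earlier results of these data known. The chi-square per degree of freedom between libraries within a group was 10.6 to 138, so these libraries differed by more than counting error. It cannot tell separate libraries of the same heart from separate animals. Counting error is small at this depth except for Nnt, Nmrk1 and Nmrk2.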

Additional observations from a re-analysis of the deposited data

Results flagged for a closer look

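The change with TAC differed between the groups labelled T497A and WT for 7 of the 9 members, by the interaction term of edgeR's quasi-likelihood test. Of all genes, 29.5% were called for this term. The difference (T497A response minus WT response, log2) was -2.15 for Nmrk2 (adjusted p = 8.10e-04), 0.73 for Nampt (4.53e-04), 1.09 for Nmnat3 (5.72e-05) and 1.01 for Nadk2 (3.37e-05). It was 1.15 for Nnt (0.00655), 0.49 for Sirt3 (0.0144) and -0.26 for Nadk (0.0464). The Sirt3 call was lost without TMM factors (0.19, adjusted p = 0.206), and the Nadk call in 12 of 21 alternatives. The T497A sham libraries alone lacked Y-linked transcripts, so sex and genotype cannot be told apart in these differences. After TAC, where both groups had Y-linked transcripts, the same 7 members were called between T497A and WT, against 35.7% of all genes. The same TAC libraries enter the interaction, so the calls after TAC are not independent of it. Without TMM factors the Sirt3 call after TAC was lost (0.17, adjusted p = 0.103), and that of Nadk was lost in 4 of 23 alternatives. The summed cardiomyocyte markers moved with these differences, standing 0.69 higher (log2) in T497A than in WT after TAC, and their part was not tested. Relative to that sum the difference in response was -2.77 for Nmrk2, 0.07 for Nampt, 0.43 for Nmnat3, 0.34 for Nadk2, 0.51 for Nnt, -0.16 for Sirt3 and -0.92 for Nadk, so that Sirt3 turned.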

How the results depend on the processing

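Of 54 results (9 members in 6 comparisons), 28 were called; 20 of these kept their direction and call in every alternative run, 8 lost the call in at least 1 and 0 turned. Of the 26 not called, 10 were called in at least 1 alternative and 7 changed sign in at least 1. Without TMM factors the log2 change was 0.005 for Nadk with TAC in T497A, -0.183 for Nmnat1 in T497A against WT after TAC, 0.199 for Nmrk1 with TAC in WT, and 0.032 for Nmrk2 and 0.018 for Nnt in T497A against WT after sham. Leaving out 1 library gave log2 changes of both signs for Nadk with TAC in T497A (-0.070 to 0.011) and in T497A TAC against WT sham (-0.019 to 0.062), for Nmnat1 after TAC (-0.060 to 0.182), and after sham for Nmrk2 (-0.330 to 0.144), Nadk2 (-0.012 to 0.109) and Nnt (-0.108 to 0.052). The cause was not tested. Genes called with 1 library left out numbered 2840 to 5152 for TAC in T497A, 505 to 1607 for T497A against WT after sham and 623 to 2812 for T497A TAC against WT sham, and members called 0 to 2 and 0 to 4 in these last comparisons. After sham, DESeq2 called 1697 genes and 1 member, limma-voom 2 members, the fit without TMM factors 1 and that of only the sham groups 2. For T497A TAC against WT sham, DESeq2 called 2736 genes and 4 members, limma-voom 3969 and 7, and only the groups compared 2992 and 4. No pairing by replicate number was seen: same-numbered libraries correlated at -0.113 to 0.074 in their deviations, and 2 of 12 correlated best with their own number. With 3 libraries per group this check cannot exclude a pairing. With the replicate block, genes called were 4021 (TAC in T497A), 8579 (TAC in WT), 5994 (after TAC), 862 (after sham) and 4921 (interaction), and members called 3, 8, 7, 0 and 6. Nnt, at 68 to 238 counts, had the lowest count of any member in a single library. Its counts come almost wholly from unshared exon bases, so they do not reflect depth alone.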
